A study of Homo sapiens with 4 samples.

Results

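Eph receptors are membrane tyrosine kinases, and ephrins are the ligands that neighbouring cells present to them. Transcripts of both were read on 4 Affymetrix expression arrays of colorectal cancer cells. The genes were chosen by symbol, as every probe set annotated to exactly 1 of 10 genes, EPHB2, EPHB3, EPHB4, EPHA1, EPHA2, EPHA4, EFNA1, EFNA4, EFNB1 and EFNB2. That gave 18 of 54675 probe sets, for 9 of the 10 genes. The symbols were chosen with earlier results of these data known, so counts set beside all genes are descriptions only. For EPHB2 the platform annotation used listed no probe set, so EPHB2 was not analysed here. Of the 9 genes, 5 encode receptors and 4 encode ephrins; 5 had several probe sets and 4 had 1.

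The arrays were LS174T-siCDX1 and its vector control LS174T-siVec, and HCT116-CDX1 and its vector control HCT116-Vec. LS174T and HCT116 are established human colorectal carcinoma lines, and CDX1 is a homeobox protein that drives gene expression in intestinal epithelium. The titles were read as lowered CDX1 in LS174T and introduced CDX1 in HCT116, since the labels gave neither the constructs nor whether a line was 1 clone. Each group was 1 array, so no difference below has a replicate check and no p-value was computed.

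Ligands of the A class are held in the membrane by a lipid anchor and mainly bind EphA receptors, whereas ligands of the B class span the membrane and mainly bind EphB receptors. Contact between a receptor and an ephrin on another cell signals into both cells and often makes them part. In the mouse intestine EphB2 and EphB3 are highest in the lower crypt, where beta-catenin and TCF drive their genes, and ephrin-B ligands are higher towards the villus, so that cells sort by position.

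Values were RMA levels on the log2 scale, on which a difference of 1 is 2-fold. Levels were compared between arrays for 1 probe set at a time, never between probe sets. A gene or probe set was taken as measured where the brighter of 2 arrays was at least 6, and "2-fold higher" or "2-fold lower" means a difference of at least 1 in a measured gene. A gene with several probe sets was read from the brightest, and the other probe sets of the 9 genes are described beside it. An RNA extract cannot show whether fewer cells of a line carried a transcript or each cell carried less.

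The arrays were checked through CDX1, the targeted gene, and through markers. CDX1 stood at 9.06 in LS174T-siCDX1 and 10.46 in LS174T-siVec, a difference of -1.40, and at 8.24 on the array labelled HCT116-CDX1 and 8.21 in HCT116-Vec. The probe set of CDX1 thus showed no increase on the array labelled HCT116-CDX1, and every direction given for that pair rests on its label. KRT20, an intestinal keratin gene, was at 5.45 in LS174T-siCDX1 and 8.15 in LS174T-siVec, and at 9.38 on the array labelled HCT116-CDX1 and 6.36 in HCT116-Vec. Array medians ran from 7.04 to 7.06, and 45 hybridisation and labelling control probe sets differed by at most 0.364 in the HCT116 pair, 0.339 in the LS174T pair and 0.508 between the vector arrays. Of 8 colorectal epithelial markers, 7 were at 6 or above in LS174T-siCDX1 and 8 on each of the other arrays; KRT20 was the exception. Of the leukocyte markers 3 of the 4 that could be read, of the endothelial markers 3 of 5, and of the fibroblast markers 5 of 6, also read 6 or above on every array, among them the T cell gene CD3E at 7.76 to 8.07. On these arrays the markers of other cell types reached 9.14 in their brightest probe sets, so a level below that is no proof that a transcript was present, and a fold against such a level is a ratio of readings. By the brightest probe set, this holds for EPHA4, EFNA1, EFNA4 and EFNB1 on every array, and for EPHB3 and EPHA1 on the HCT116 arrays. In those probe sets the markers differed by less than 2-fold in each comparison. However, 2 of the 5 probe sets of the fibroblast marker COL1A1 were at least 2-fold lower in LS174T in both line comparisons. They differed by up to -4.98 between the vector arrays and -5.07 between the modified arrays. The LS174T readings behind these largest differences lay under 6, so their sizes are not exact. The part of COL1A1 in the results was not tested.

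The difference between the lines was the largest pattern among these genes. LS174T-siVec was set against HCT116-Vec to show how the lines differ under a vector control. Of 9 measured genes, 4 were at least 2-fold higher in LS174T-siVec, EPHB3, EPHB4, EPHA1 and EFNA4, none was 2-fold lower and 5 differed by less. Over all 17043 measured genes 6.03% were at least 2-fold higher, and 13.4% differed in either direction. The median difference of the 9 genes was 0.87, against 0.01 over all measured genes. By probe set, 7 of 16 measured were at least 2-fold higher in LS174T-siVec, where 5.87% of all measured probe sets were. All 7 belong to the same 4 genes, so they add no further gene. Among them 241482_at of EPHA1 lay under 6 in HCT116-Vec and is at least 1.39-fold.

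**Figure D1:**
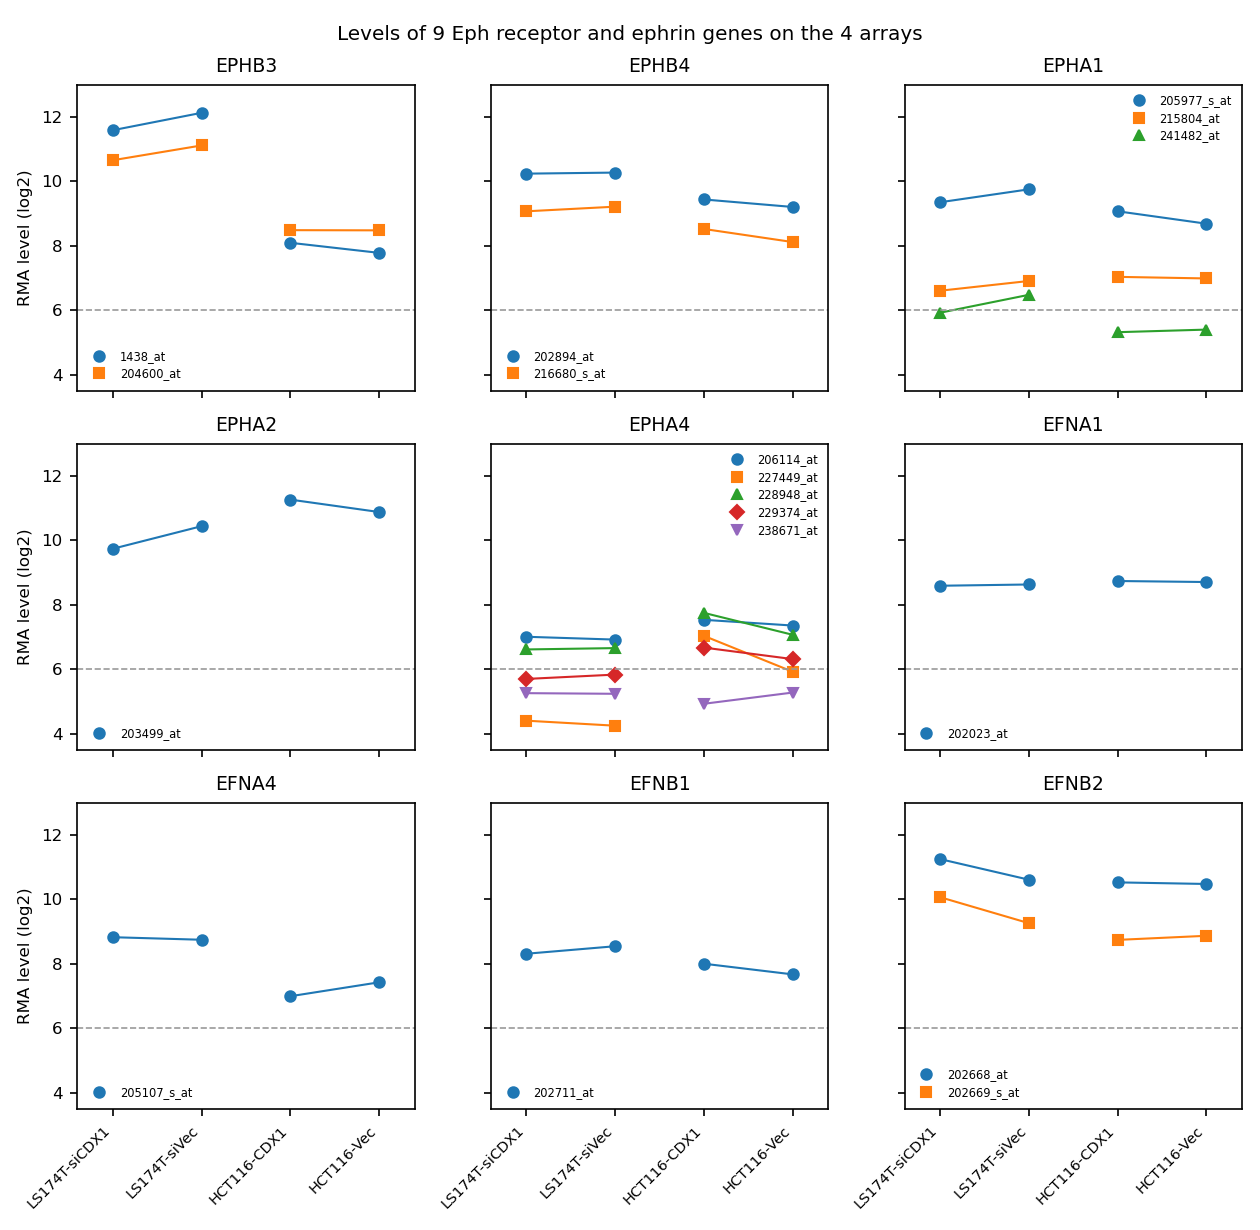
RMA level (log2, vertical axis) of each probe set of the 9 genes on LS174T-siCDX1, LS174T-siVec, HCT116-CDX1 and HCT116-Vec. Each point is 1 array, lines join the arrays of a pair, and the dashed line marks the level of 6; EPHB3 sits above 10.6 on both LS174T arrays and below 8.5 on both HCT116 arrays.

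EPHB3, the receptor of the lower crypt in the mouse, had the largest difference between the lines. Its probe set 1438_at read 11.58 in LS174T-siCDX1 and 12.12 in LS174T-siVec, against 8.09 on the array labelled HCT116-CDX1 and 7.78 in HCT116-Vec. Its second probe set, 204600_at, read 10.65 and 11.11 in LS174T-siCDX1 and LS174T-siVec, against 8.48 on each HCT116 array. Both LS174T arrays stood above both HCT116 arrays in either probe set. LS174T-siVec was 20.3-fold above HCT116-Vec by 1438_at and 6.20-fold by 204600_at, as ratios of readings, with both HCT116 levels in the range that markers of other cell types reached. The difference by 1438_at, 4.34, was larger than that of 99.7% of measured genes.

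EPHB4, a receptor that prefers ephrin-B2, was just past the 2-fold mark. Probe set 202894_at read 10.24 in LS174T-siCDX1 and 10.27 in LS174T-siVec, against 9.43 on the array labelled HCT116-CDX1 and 9.20 in HCT116-Vec. The other, 216680_s_at, read 9.07 and 9.21 in LS174T-siCDX1 and LS174T-siVec, against 8.52 and 8.11 on the arrays labelled HCT116-CDX1 and HCT116-Vec. The vector arrays differed by 1.07 and 1.10 in the 2 probe sets, and the LS174T arrays were the higher in each.

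EPHA1, the founding member of the receptor family, was read unevenly by its probe sets. By 205977_s_at its level was 9.35 in LS174T-siCDX1 and 9.75 in LS174T-siVec, against 9.07 on the array labelled HCT116-CDX1 and 8.68 in HCT116-Vec, a vector difference of 1.07. By 215804_at it was 6.60 and 6.91 in LS174T-siCDX1 and LS174T-siVec, against 7.03 and 6.98 in HCT116-CDX1 and HCT116-Vec, and the vector arrays differed by -0.079. The call of EPHA1 as higher in LS174T-siVec thus rests on the brightest probe set and on 241482_at, at 6.48 in LS174T-siVec and 5.40 in HCT116-Vec, where the lower array lay under 6 and the difference is at least 1.39-fold.

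EPHA2, the main receptor of ephrin-A1 and a receptor common in carcinoma cells, ran the other way. Its probe set, 203499_at, read 9.74 in LS174T-siCDX1 and 10.44 in LS174T-siVec, against 11.26 on the array labelled HCT116-CDX1 and 10.88 in HCT116-Vec. Both LS174T arrays were below both HCT116 arrays, but the vector arrays differed by only -0.44, or 1.35-fold.

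EPHA4, a receptor that binds ephrins of both classes, had 5 probe sets, and those at 6 or above on any array read higher in HCT116. Its brightest, 206114_at, read 7.01 in LS174T-siCDX1 and 6.92 in LS174T-siVec, against 7.53 on the array labelled HCT116-CDX1 and 7.36 in HCT116-Vec. In 228948_at the levels were 6.62 and 6.66 in LS174T-siCDX1 and LS174T-siVec, against 7.75 and 7.07 in HCT116-CDX1 and HCT116-Vec. These levels lie in the range that leukocyte genes also reached, and the vector differences of both probe sets, -0.44 and -0.41, were under 2-fold. In 229374_at the levels were 5.70 and 5.84 in LS174T-siCDX1 and LS174T-siVec, against 6.67 and 6.32 in HCT116-CDX1 and HCT116-Vec, a vector difference of -0.48. The probe set 227449_at was under 6 on both vector arrays, at 4.25 in LS174T-siVec and 5.92 in HCT116-Vec. The probe set 238671_at was under 6 on all 4 arrays.

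Among the ephrins, EFNA4 separated the lines. Its 1 probe set, 205107_s_at, read 8.83 in LS174T-siCDX1 and 8.75 in LS174T-siVec, against 6.997 on the array labelled HCT116-CDX1 and 7.43 in HCT116-Vec. The 2 LS174T arrays stood close together and above both HCT116 arrays, and the vector arrays differed by 1.32, or 2.495-fold. EFNA1, the ligand of EPHA2, was nearly level, at 8.59 and 8.63 in LS174T-siCDX1 and LS174T-siVec and 8.74 and 8.71 in HCT116-CDX1 and HCT116-Vec.

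The B-class ligands differed less between the vector arrays than EPHB3 did. EFNB1 read 8.32 in LS174T-siCDX1 and 8.55 in LS174T-siVec, against 8.01 on the array labelled HCT116-CDX1 and 7.67 in HCT116-Vec, a vector difference of 0.87 or 1.83-fold. EFNB2, the ligand of EPHB4, read 11.25 in LS174T-siCDX1 and 10.61 in LS174T-siVec by 202668_at, against 10.53 on the array labelled HCT116-CDX1 and 10.48 in HCT116-Vec, a vector difference of 0.13. By 202669_s_at it read 10.07 and 9.26 in LS174T-siCDX1 and LS174T-siVec, against 8.74 and 8.87 in HCT116-CDX1 and HCT116-Vec, a vector difference of 0.39. The LS174T arrays were the higher in both genes, and none of these vector differences reached 2-fold.

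The second arrays of the lines, LS174T-siCDX1 and HCT116-CDX1, gave a further comparison of the lines. By the labels CDX1 was lowered in LS174T-siCDX1 and introduced in HCT116-CDX1, so line and modification cannot be told apart in this pair. EPHB3 was 11.2-fold higher and EFNA4 3.56-fold higher in LS174T-siCDX1 than on the array labelled HCT116-CDX1, and EPHA2 was 2.88-fold lower. In their brightest probe sets the other 6 genes differed by less than 2-fold, EPHB4 by 0.80 and EPHA1 by 0.28. Other probe sets of EFNB2 and EPHA4 did reach 2-fold, with EFNB2 at 1.32 by 202669_s_at and EPHA4 at -1.13 by 228948_at. By 227449_at EPHA4 was at -2.63, but LS174T-siCDX1 lay under 6 there, so the difference is at least 2.05-fold. Of all measured genes 6.22% were at least 2-fold higher and 7.3% at least 2-fold lower in that pair. In the brightest probe sets EPHB3 and EFNA4 were thus called with the vector arrays and with the modified arrays. EPHB4 and EPHA1 were called with the vector arrays only, and EPHA2 with the modified arrays only. For EPHA2 the vector arrays differed by -0.44. Both of its within-pair differences, -0.70 in LS174T and 0.39 in HCT116, widened the gap between the modified arrays.

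**Figure D2:**
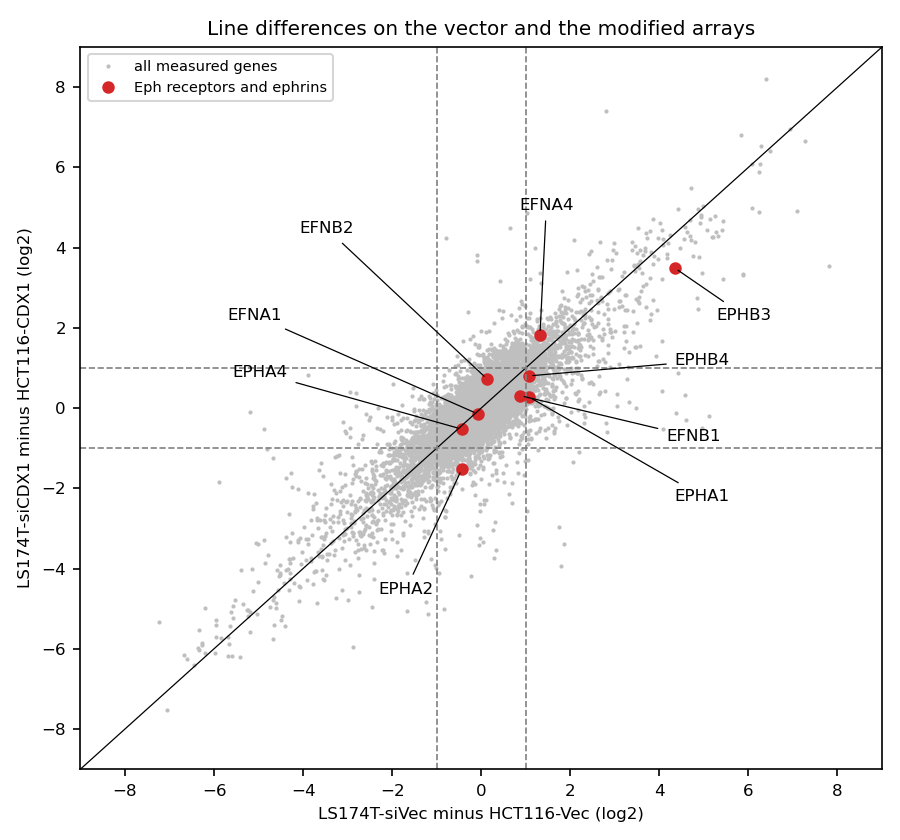
Difference between the lines on the vector arrays (LS174T-siVec minus HCT116-Vec, horizontal, log2) and on the modified arrays (LS174T-siCDX1 minus HCT116-CDX1, vertical, log2), for each measured gene (grey) and the 9 Eph receptor and ephrin genes (red). Dashed lines mark 2-fold and the diagonal equal differences; EPHB3 lies at 4.34 and 3.49, and EPHA2 at -0.44 and -1.52.

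Within the LS174T pair no member differed by 2-fold. The comparison of LS174T-siCDX1 with LS174T-siVec addresses a lowering of CDX1 in a line that carries it. CDX1 was not lost, and still read 9.06 in LS174T-siCDX1 against 10.46 in LS174T-siVec. Of 9 measured genes, 0 were at least 2-fold higher or lower, where 1.85% of all measured genes were. Of the 9, 3 lay above 0 and 6 below, and 48.8% of all measured genes lay above 0. The median was -0.04, against -0.01 over all measured genes. LS174T-siVec is also 1 of the vector arrays, so these differences share an array with the comparison of lines.

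The largest of these differences were in EPHA2 and EFNB2, in opposite directions. EPHA2, at 9.74 in LS174T-siCDX1 and 10.44 in LS174T-siVec, differed by -0.70, or 1.63-fold. EFNB2, at 11.25 and 10.61 by 202668_at, differed by 0.64, and by 202669_s_at, with 10.07 in LS174T-siCDX1 and 9.26 in LS174T-siVec, by 0.81 or 1.75-fold. These readings lay outside the central 95% of gene differences, -0.68 to 0.49, and outside the 0.339 that control probe sets reached. For EPHB3 the differences were -0.54 and -0.46, and for EPHA1 -0.40, -0.30 and -0.56, lower in LS174T-siCDX1 in each probe set. EPHB4, EFNA1, EFNA4, EFNB1 and the brightest probe set of EPHA4 differed by -0.23 to 0.08 and by 0.09, within what control probe sets showed.

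In the HCT116 pair 0 of 9 measured genes were 2-fold higher or lower on the array labelled HCT116-CDX1 than in HCT116-Vec, beside 1.89% of all measured genes. The comparison asks what introduced CDX1 changes, although CDX1 itself read alike on both arrays. The median of the 9 genes was 0.23, against -0.01 over all measured genes. Of the 9, 8 lay above 0, where 49.0% of all measured genes did. By probe set, 1 of 16 measured was 2-fold higher, where 0.795% of all measured probe sets were.

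That probe set was 227449_at of EPHA4, at 7.04 on the array labelled HCT116-CDX1 and 5.92 in HCT116-Vec. The difference was 1.11, and against a level of 6 it was at least 2.05-fold; on the LS174T arrays it read 4.41 in LS174T-siCDX1 and 4.25 in LS174T-siVec. The other probe sets of EPHA4 differed by 0.18, 0.68 and 0.36 where measured, and the one under 6 throughout by -0.35. Of the 5, 4 were thus above 0, from 1.13-fold in 206114_at to at least 2.05-fold in 227449_at.

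The other differences of this pair were under 2-fold. In the brightest probe sets EPHA2 at 0.39, EPHA1 at 0.39, EFNB1 at 0.33, EPHB3 at 0.31 and EPHB4 at 0.23 were higher on the array labelled HCT116-CDX1, each inside the central 95% of gene differences, -0.78 to 0.65. EPHA2 and EPHA1, and EFNA4 below 0, went past the 0.364 that control probe sets reached. The other probe sets of EPHB3 and EPHA1 did not show these sizes, with 0.01 for 204600_at of EPHB3, 0.05 for 215804_at and -0.08 for 241482_at of EPHA1, the last under 6 on both arrays. The other of EPHB4, 216680_s_at, differed by 0.41. EFNA4 was the gene below 0, with 6.997 on the array labelled HCT116-CDX1 and 7.43 in HCT116-Vec, a difference of -0.43. EFNB2 differed by 0.05 and -0.13 in its 2 probe sets, and EFNA1 by 0.03.

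**Figure D3:**
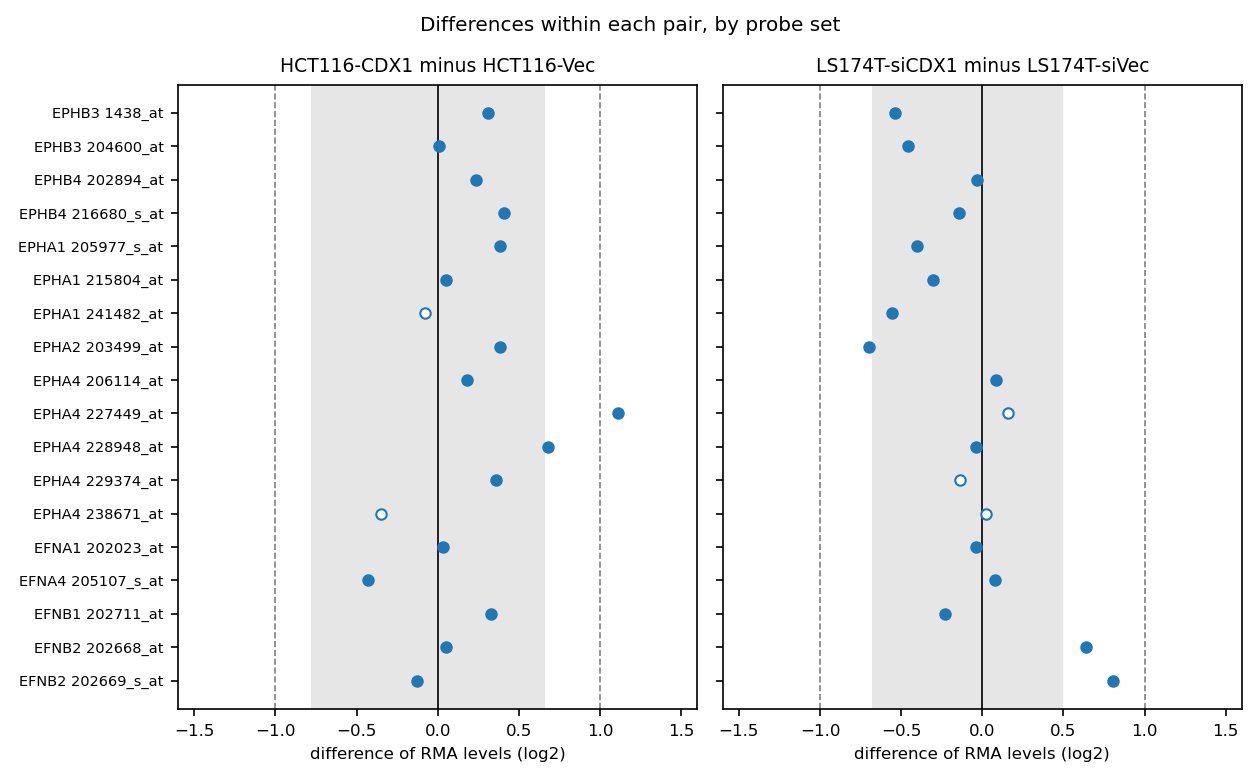
Difference (log2, horizontal) of each probe set within the HCT116 pair (left, HCT116-CDX1 minus HCT116-Vec) and the LS174T pair (right, LS174T-siCDX1 minus LS174T-siVec). Filled points were measured and open points read under 6 on both arrays; the grey band holds the central 95% of all measured genes and dashed lines mark 2-fold, which only EPHA4 227449_at passes, at 1.11.

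Read by the labels, 6 of the 9 genes were higher on the array with more CDX1 in both pairs, namely EPHB3, EPHB4, EPHA1, EPHA2, EFNB1 and EFNA1. Of 16530 genes measured in both pairs 23.5% had these signs. EFNA1 at 0.03 and -0.04, and EPHB4 at -0.03 in LS174T, lay close to 0. With quantile normalization EPHB4 and EFNA1 lost these signs, which left 4 genes, and with the loess EPHB4 did, which left 5; EPHB3, EPHA1, EPHA2 and EFNB1 had them under each normalization and reading tried. Of the rest, EFNB2 and EPHA4 lay above 0 in both pairs by their brightest probe sets, though not in each of their other probe sets. With the mean of its probe sets EFNB2 was at -0.04 in HCT116. EFNA4 lay below 0 in HCT116 and at 0.08 in LS174T. None of the 18 differences of the 9 genes in the 2 pairs reached 2-fold. By their brightest probe sets the colorectal epithelial markers had the same signs, with 8 of 8 above 0 in HCT116-CDX1 and 8 of 8 below 0 in LS174T-siCDX1. Of all measured genes 49.0% and 48.8% lay above 0 in these pairs. EPCAM at 0.03 and CDX2 at 0.10 in HCT116, and CDH1 at -0.04 in LS174T, lay within what control probe sets showed. Another probe set of VIL1 was at -0.21 in HCT116. The part of these markers in the Eph and ephrin differences was not tested.

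The 250 bases before the annotated start of each gene were read from RefSeq (GRCh38.p14) and searched on both strands for 2 short letter runs, TTTAT (or ATAAA), the core that CDX proteins bind, and CTTTG (or CAAAG), the core that TCF proteins bind; the 2 runs did not overlap in any of these windows. All 9 genes had a window and EPHA4 had 2. TTTAT stood in 2 of the 10 windows, for EPHA4 and EFNB2, and in 32.7% of all 35116 windows. CTTTG stood in 4 of the 10, for EPHA2, EFNA4, EFNA1 and EPHA4, and in 42.1% of all windows. Runs of 5 letters are common, so a match is a description of the letters and not of binding. The windows of 3 genes are shown, 5′ to 3′ on the strand of the gene, with the matched letters in capitals: EPHB3 (chr3:184561535-184561784, plus strand) for the largest difference between the lines, and EFNB2 (chr13:106535663-106535912, minus strand) and EPHA2 (chr1:16156070-16156319, minus strand) for the largest differences in the LS174T pair.
EPHB3: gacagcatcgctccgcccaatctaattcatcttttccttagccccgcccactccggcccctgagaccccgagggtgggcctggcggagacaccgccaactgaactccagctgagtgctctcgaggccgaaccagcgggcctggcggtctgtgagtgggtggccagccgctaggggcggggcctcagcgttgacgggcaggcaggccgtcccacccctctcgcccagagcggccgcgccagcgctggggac
EFNB2: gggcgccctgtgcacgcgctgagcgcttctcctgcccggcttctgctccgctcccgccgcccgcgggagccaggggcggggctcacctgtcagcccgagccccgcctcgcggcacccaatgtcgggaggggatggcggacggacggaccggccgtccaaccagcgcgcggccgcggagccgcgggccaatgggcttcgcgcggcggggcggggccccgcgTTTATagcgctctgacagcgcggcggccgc
EPHA2: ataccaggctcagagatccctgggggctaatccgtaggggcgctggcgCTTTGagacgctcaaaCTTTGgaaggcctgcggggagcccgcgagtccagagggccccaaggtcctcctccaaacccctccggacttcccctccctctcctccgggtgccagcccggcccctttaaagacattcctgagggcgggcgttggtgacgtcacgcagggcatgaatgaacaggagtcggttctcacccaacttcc
EPHB3 held neither run in this window. EFNB2 held TTTAT with its first base 30 bases before the start, and EPHA2 held CTTTG with first bases 202 and 186 bases before it.

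The 12 other genes of the family were read as well. Of 8 other receptor genes, 5 were measured; EPHA3, EPHA6 and EPHA7 read under 6 on all 4 arrays in their brightest probe sets. Between the vector arrays EPHB6, a receptor without kinase activity, was 2-fold lower, with 6.39 in LS174T-siVec and 7.45 in HCT116-Vec, a difference of -1.06. On the modified arrays it was at 7.04 in LS174T-siCDX1 and 7.24 on the array labelled HCT116-CDX1, so that its 2 line differences were unequal. The 4 other receptor genes differed by less than 2-fold, and the median of the 5 was -0.16.

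Of 4 other ephrin genes, EFNA2 and EFNA3 separated the lines in opposite directions. EFNA2 read 6.42 in LS174T-siCDX1 and 6.99 in LS174T-siVec, against 8.82 on the array labelled HCT116-CDX1 and 9.27 in HCT116-Vec, and the vector arrays differed by -2.28. Its probe set 1553573_s_at differed by -1.16, but LS174T-siVec lay under 6 there, so the difference is at least 1.75-fold. The probe set 208256_at, at -0.12, was under 6 on all 4 arrays. EFNA3 read 9.94 and 10.14 in LS174T-siCDX1 and LS174T-siVec, against 8.97 and 9.12 in HCT116-CDX1 and HCT116-Vec, a vector difference of 1.02. Both LS174T arrays were thus below both HCT116 arrays for EFNA2 and above them for EFNA3. EFNA5 and EFNB3 differed by -0.12 and -0.02. Within either pair none of these 12 genes reached 2-fold in any probe set. By the brightest probe set, 1.89% of all measured genes did in the HCT116 pair and 1.85% in the LS174T pair. The largest differences of the 12 genes were in the LS174T pair, at 0.68 for 230425_at of EPHB1 and 0.65 for EPHB6.

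**Figure D4:**
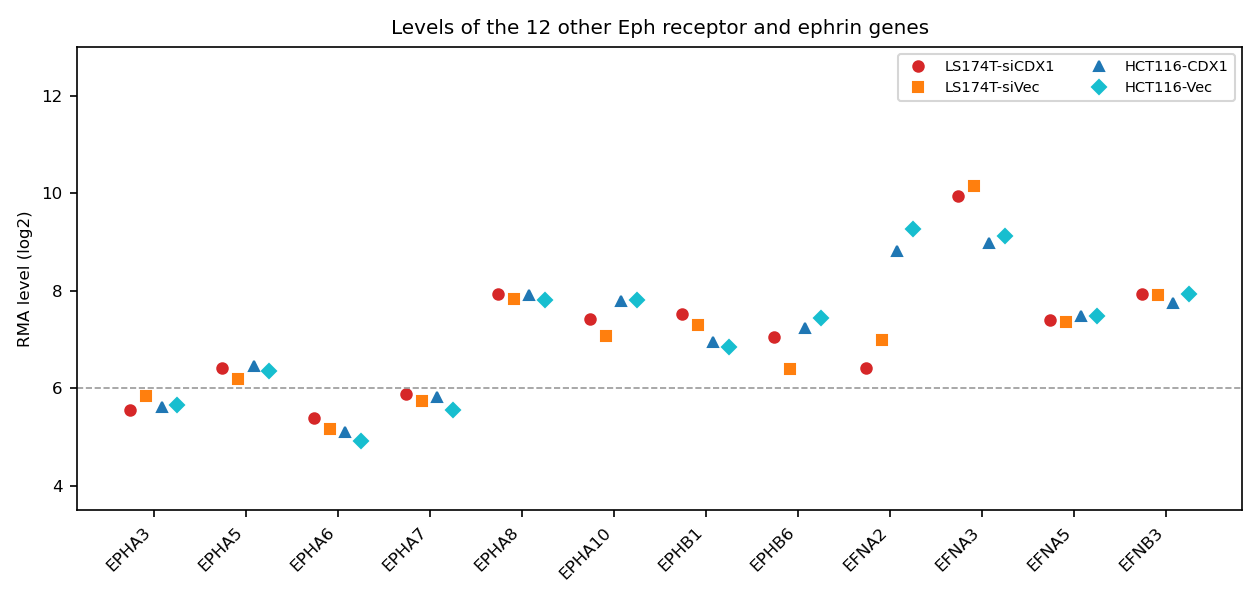
RMA level (log2) of the 12 other Eph receptor and ephrin genes in their brightest probe sets, 1 point per array. The dashed line marks 6; EFNA2 lies at 6.42 and 6.99 on the LS174T arrays and at 8.82 and 9.27 on the HCT116 arrays.

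Of 40 genes for proteins that bind, cleave or relay Eph receptors and ephrins, 37 had a probe set and 36 were measured. Between the vector arrays 4 were at least 2-fold higher and 5 at least 2-fold lower in LS174T-siVec, together 9 of 36 beside 13.4% of all genes, and the median was 0.03. VAV3, an exchange factor that Eph receptors recruit, read 10.22 in LS174T-siVec and 6.35 in HCT116-Vec, a difference of 3.87, and its 3 probe sets ran from 3.16 to 4.01. FYN, a kinase of the Src family, read 6.02 in LS174T-siVec and 8.60 in HCT116-Vec, a difference of -2.58, although its 5 probe sets ran from -2.58 to -0.07. CDH1, which encodes E-cadherin, was at -1.79, YES1, another Src family kinase, at -1.51, KALRN, an exchange factor, at 1.44, and GRB10, an adaptor, at 1.40. The probe sets of YES1 and KALRN did not all have the same sign. Those of GRB10 ran from 0.45 to 1.85 and those of CDH1 from -1.79 to -0.99, so not each reached 2-fold. Ranking used the brightest probe sets only, and some partner genes not named here had larger differences in another probe set.

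Within the pairs calls among these partner genes were about as rare as over all measured genes. In the LS174T pair 0 of 36 differed by 2-fold, beside 1.85% of all measured genes, with 18 above 0 and 18 below. In the HCT116 pair 1 of 36 did, GRB10, beside 1.89% of all measured genes. GRB10 was at 10.84 on the array labelled HCT116-CDX1 and 9.22 in HCT116-Vec, and its 4 probe sets differed by 0.71 to 1.62. In that pair 26 of the 36 lay above 0, where 49.0% of all measured genes did, with a median of 0.08. FYN at 0.94 and CDH1 at 0.82 were just under 2-fold in their brightest probe sets. The second probe set of CDH1 differed by 1.08. ADAM10, the protease that cuts ephrins from the membrane, differed by 0.41 in the HCT116 pair and 0.08 in the LS174T pair.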

How the data were processed

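Total RNA of 4 cell line samples was hybridised to 1 array per sample, and the titles gave the groups. Per the submitters' processing notes, the authors made the deposited log2 values with RMA, which subtracts background, equalises array distributions and summarises probes; neither its version nor which arrays were normalised together is given in the sources used here. Deposited values, 3.20 to 14.6, were used as deposited. Of 54675 probe sets, 41097 had 1 gene in the platform annotation, 1801 several and 11777 none listed; 41043 matched RefSeq (GRCh38.p14) by gene identifier, and 0 symbols changed. For each of 19775 genes the brightest probe set, by its mean over the arrays, was used.

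Differences were computed in Python 3.11.15 with numpy 2.4.6, pandas 2.3.3 and statsmodels 0.14.6, with a floor of 6 in the brighter array and a threshold of 2-fold, and no test, since each group had 1 array. The call rule was tried on simulated data, with normal noise sized from the middle spread of differences in the HCT116 pair. Such data hold no spread between cultures, so the trial cannot show how reliable a call from 1 array per group is. The number of arrays limits the precision.

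The members and gene lists were chosen with earlier results of these data known. Named genes were the members, CDX1, KRT20 and, in the lists of other family genes and of partners, every gene called or the 6 largest of more than 6; further genes or values (ADAM10, CD3E, FYN and CDH1 in the HCT116 pair, uncalled family genes) were named after their values were seen. The alternatives tried were a threshold of 1.5-fold or 3-fold, a floor of 7 or none, averaging a gene's probe sets, dropping those named _x_at or _s_at, and quantile normalization, equal medians or a subtracted loess (span 0.3).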

Additional observations from a re-analysis of the deposited data

Results flagged for a closer look

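With CDX1 higher by label minus CDX1 lower, EFNB2 differed by 0.05 in HCT116 and by -0.64 in LS174T, a gap of 0.69, and EPHA4 by 0.18 in HCT116 and by -0.09 in LS174T, a gap of 0.26. The direction of the single array per group was opposite in the 2 lines for these 2 genes, on their brightest probe sets. In 202669_s_at EFNB2 was not opposite, at 8.74 in HCT116-CDX1 against 8.87 in HCT116-Vec and 9.26 in LS174T-siVec against 10.07 in LS174T-siCDX1. Nor was EPHA4 in 228948_at, at 7.75 against 7.07 in HCT116 and 6.66 against 6.62 in LS174T, in the same order of arrays. With both LS174T levels under 6, EPHA4 was opposite in 227449_at and not in 229374_at or 238671_at. With the mean of its probe sets EFNB2 was at -0.04 in HCT116 and no longer opposite. The difference between the lines was not tested. The HCT116 effect of EFNB2 and both effects of EPHA4 were smaller than the control probe sets reached.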

How the results depend on the processing

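No paired analysis was possible because each group had 1 array and the labels carried no replicate numbers. Of the 132 differences of single members recomputed under other normalizations and readings, 124 moved by less than 1 SD of the control probe sets, 7 moved by more and 1 reversed. Many of the 124 could not move. The mean of probe sets leaves a gene with 1 probe set unchanged. Dropping probe sets leaves a gene unchanged where its brightest is kept, and equal medians shift all genes of a comparison by 1 amount. The 124 is thus no measure of robustness. The reversal was EPHA1 between the vector arrays, at -0.079 without probe sets ending in _x_at or _s_at, since its next probe set was then read. The same setting left 2 members at least 2-fold higher in LS174T-siVec, since EFNA4 had no other probe set. With the mean of probe sets 3 were, and with a 3-fold threshold 1, EPHB3. With a 1.5-fold threshold 1 member was higher, EFNB2, and 1 lower, EPHA2, in LS174T-siCDX1. Over all genes the 1.5-fold threshold gave 570 higher and 1033 lower on the array labelled HCT116-CDX1, 291 and 547 in LS174T-siCDX1, and 2084 and 2433 in LS174T-siVec against HCT116-Vec. The 3-fold threshold gave 43 and 26, 44 and 85, and 487 and 627 in the same order. The floors, quantile normalization, equal medians and the loess left every count of members as it was. EPHB3 between the vector arrays ran from 3.49 to 4.38 under the alternatives. In the HCT116 pair the mean of probe sets gave 0.16 for EPHB3, 0.12 for EPHA1 and 0.40 for EPHA4, and EPHA1 was at 0.05 without probe sets ending in _x_at or _s_at. Between the vector arrays the mean gave 0.69 for EPHA1 and -0.61 for EPHA4. Of the differences under 2-fold, EPHB4 in the LS174T pair changed sign with quantile normalization (0.05) and the loess (0.01), EFNA1 in that pair with quantile normalization (0.004), and EFNB2 in the HCT116 pair with the mean of probe sets (-0.04). With 1 array per group, a 2-fold difference of EPHB4 or EPHA1 cannot be set against the spread between cultures.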

Other observations

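EFNA4, EFNA3 and EFNA1 are neighbours on chromosome 1, in this order among the protein-coding genes of the RefSeq assembly apart from a readthrough of EFNA4 and EFNA3. Their line differences on the vector arrays were 1.32, 1.02 and -0.08, with levels of 8.75, 10.14 and 8.63 in LS174T-siVec and of 7.43, 9.12 and 8.71 in HCT116-Vec. On the modified arrays the differences were 1.83, 0.97 and -0.15. The first 2 genes stood higher in LS174T on both pairs of arrays, and EFNA1 did not.

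EPHB1, a receptor of B-class ephrins, was read by 3 probe sets of which the brightest differed by 0.45 between the vector arrays. The dimmer 230425_at read 6.90 in LS174T-siCDX1 and 6.22 in LS174T-siVec, against 5.17 on the array labelled HCT116-CDX1 and 4.85 in HCT116-Vec. These HCT116 levels lay under 6, and each of the 3 probe sets was higher on both LS174T arrays. EPHB1 was singled out here after its values were seen.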
